A study of Mus musculus with 19 samples.

Results

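The dystrophin complex and its syntrophins, as 8 genes, were followed in extensor digitorum longus (EDL) muscle through every probe set annotated to 1 of them alone: Sntb1, Sntb2, Dmd, Utrn, Dtna, Dag1, Sgca and Sgcb. They had 32 probe sets of the 45037 on the array other than controls, and the 8 genes are among 18193 named by a probe set of their own; each probe set is given separately. The samples were 10 EDL muscles of HSALR mice, transgenic line 20 b, against 9 EDL muscles of wild-type mice, all of the FVB strain and aged 19 weeks, each measured on 1 Affymetrix array. HSALR mice carry a human skeletal actin transgene with an expanded CTG repeat, expressed in skeletal muscle, and are a model of myotonic dystrophy; the samples are from 1 transgenic line. Whether each sample is a muscle of another animal is not stated in the labels. The p-values therefore cover the spread of these samples alone, and that spread may be technical.

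The dystrophin complex spans the muscle fibre membrane. Dystrophin binds actin inside the fibre and dystroglycan in the membrane, dystroglycan binds laminin outside, the sarcoglycans stabilise this axis, and dystrobrevin and the syntrophins are adaptors on the inner face that hold signalling proteins and channels. Utrophin is the autosomal relative of dystrophin and, in adult fibres, is concentrated at the neuromuscular junction. Loss of dystrophin or of a sarcoglycan causes muscular dystrophy.

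The genes were chosen by the measured difference between HSALR and wild type, so their folds, errors and calls in that comparison are a description and support nothing further. Values are log2(signal + 16) after quantile normalization, folds on this scale understate changes of dim probe sets, and errors of folds are standard errors (SE) of the limma fit with 10 HSALR and 9 wild-type samples (for probe sets below the brightness limit, of the fit with no such limit). A call is a limma adjusted p below 0.05 (Benjamini-Hochberg, 2-sided) over the 22519 probe sets whose mean reached 6.09, of which 14.8% were called: 1457 (6.47%) higher and 1884 (8.37%) lower in HSALR. With the scaling as deposited 5.06% were called, 645 (2.86%) higher and 495 (2.2%) lower. Of the 32 member probe sets 21 were tested and 11 lay below that brightness; 4 were called higher, 2 lower and 15 neither, counts from which nothing is read since the same contrast chose the genes. The nearest members below it were Dmd 1430320_at and Utrn 1427569_a_at with means of 5.80 and 5.97, and the nearest above it were Sntb1 1438288_x_at and 1436203_a_at with 6.34 and 6.45. The median log2 fold of the 21 was -0.03, beside -0.01 for all tested probe sets.

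The arrays differed in brightness, with a median deposited signal between 39.7 and 71.9. EDL is a fast muscle, and its 10 fast-fibre markers were all above the brightness limit, with a mean log2 level of 13.5 to 13.6 in HSALR and 13.6 in wild type. HSALR replicates 9 and 10 were the most similar pair of arrays (Spearman 0.978 across probe sets, against a best value of 0.953 to 0.969 for the other samples). Their mean level over 9 macrophage markers was 9.90 and 9.88, against at most 9.02 in the other 8 HSALR samples and 7.87 to 8.64 in wild type. Over 7 fibroblast markers the level was 12.7 in both, against at most 11.8 in the other HSALR samples and 10.8 to 11.8 in wild type. Values without these 2 samples were fitted for tested probe sets only, and the part of such cells in any value was not tested. In whole muscle, fewer cells of a type and less RNA per cell cannot be told apart. Acta1, the mouse gene of skeletal actin, differed by a log2 fold of -0.01 ± 0.04 (limma adjusted p = 0.902). Its mean was 13.58 in HSALR and 13.59 in wild type, near the top of the scale, which leaves little room for a rise. It is not known here whether the Acta1 probe set reads the human transgene. Dmpk, the kinase gene that holds the repeat in the human disease, had -0.12 ± 0.12 (limma adjusted p = 0.559).

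**Figure D1:**
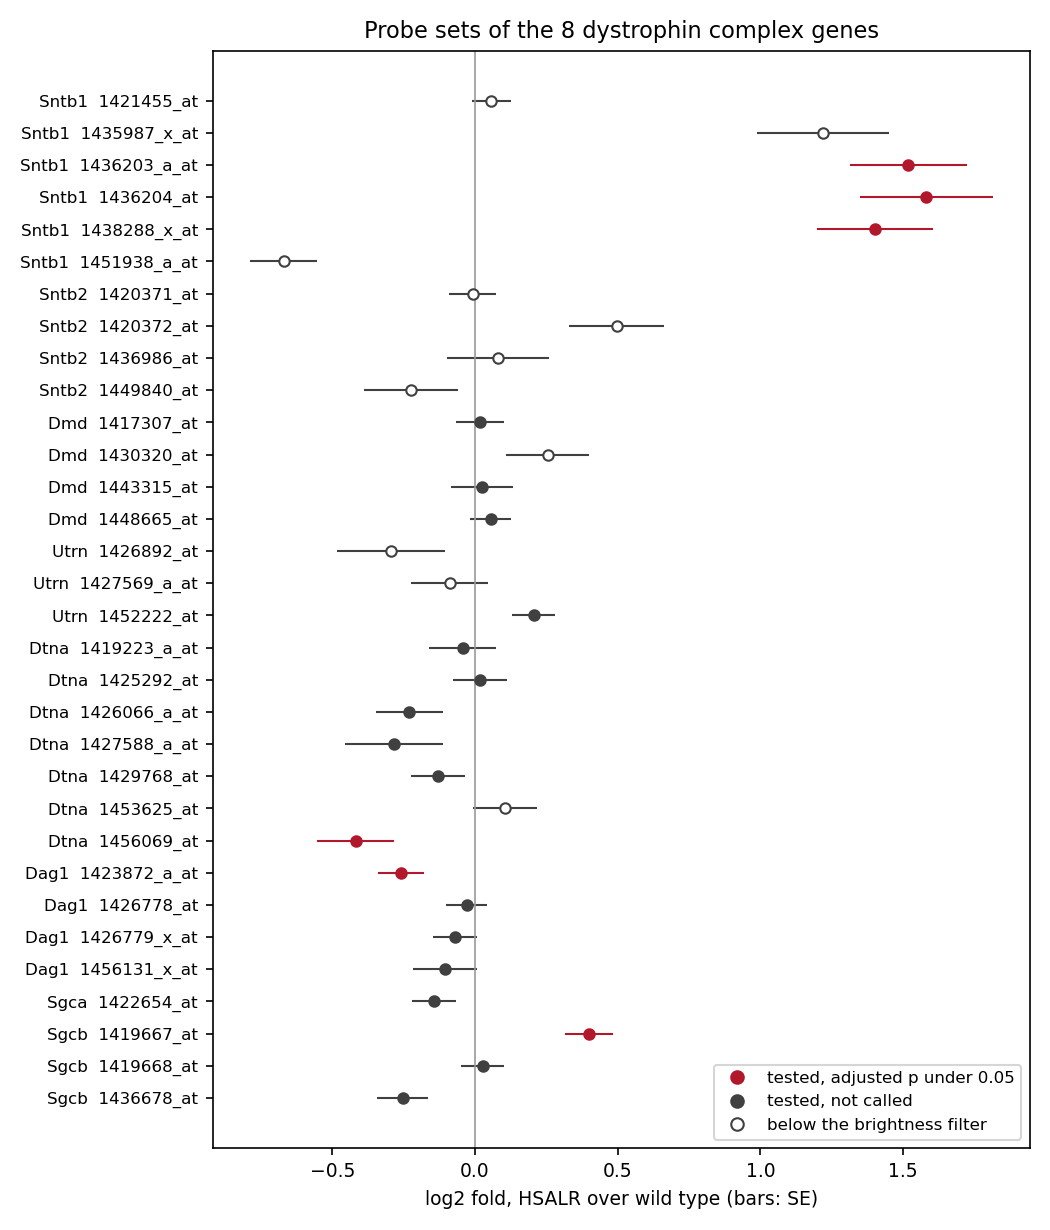
Log2 fold of HSALR over wild type for the 32 probe sets of the 8 genes (points) with its SE (bars). Filled points were tested, red ones had a limma adjusted p below 0.05, and open points lay below the brightness limit. Sntb1 has the largest folds in both directions, 1.58 and -0.67, and the 4 Dmd probe sets lie between 0.017 and 0.26.

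Sntb1 encodes beta-1 syntrophin, an adaptor whose PDZ domain binds channels and kinases and which docks on dystrophin, utrophin and dystrobrevin. Its probe sets did not move together: 4 were higher in HSALR, 1 was lower and 1 lay near 4, the value of no signal on this scale. Probe set 1436203_a_at had a lowest, median and highest log2 signal of 6.29, 7.04 and 8.62 in HSALR, against 5.51, 5.65 and 5.79 in wild type. No sample overlapped, with all of HSALR above all of wild type, as in 0.83% of tested probe sets, and the difference was 2.87-fold (log2 fold 1.52 ± 0.20, limma adjusted p = 4.61e-05). On the deposited scale the signals were 69.7 to 403 in HSALR and 29.6 to 39.7 in wild type.

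Probe set 1436204_at, designed from the same GenBank accession as 1436203_a_at, ranged over 6.39, 7.22 and 8.51 in HSALR, against 4.46, 5.89 and 6.01 in wild type. Its log2 fold was 1.58 ± 0.23 (limma adjusted p = 0.000118), and wild-type replicate 9 stood alone at the low end. Probe set 1438288_x_at gave 6.31, 6.93 and 8.35 in HSALR, against 5.06, 5.63 and 6.02 in wild type, with a log2 fold of 1.4 ± 0.20 (limma adjusted p = 9.83e-05). In both, too, the groups did not overlap. HSALR replicate 3 was the highest sample in all 3 probe sets and replicate 10 the lowest HSALR sample. The SD among HSALR samples was 0.65 in 1436203_a_at, 0.60 in 1436204_at and 0.57 in 1438288_x_at, against 0.10, 0.49 and 0.34 among wild-type samples.

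These 3 probe sets passed the brightness limit only through the HSALR samples, since their wild-type means were 5.65, 5.74 and 5.60, so they were tested only because they are high in HSALR. Leaving out HSALR replicates 9 and 10, the log2 folds of 1436203_a_at, 1436204_at and 1438288_x_at were 1.70, 1.75 and 1.53, larger than with them. The fourth probe set that was higher, 1435987_x_at, lay below the limit, with 5.39, 6.25 and 7.72 in HSALR, against 4.42, 5.0 and 5.58 in wild type. In it 9 of 10 HSALR samples exceeded the wild-type maximum (log2 fold 1.22 ± 0.23).

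The opposite was measured in 1451938_a_at, also below the limit. Its log2 signals were 4.68, 5.38 and 5.83 in HSALR, against 5.93, 6.03 and 6.16 in wild type. All 10 HSALR samples lay below every wild-type sample, which held for 0.537% of all probe sets other than controls. The log2 fold was -0.67 ± 0.12, and the deposited signals were 11.0 to 43.8 in HSALR and 41.1 to 68.9 in wild type, so the groups overlap before scaling. In a fit of all 45037 probe sets with no brightness limit, where 5.38% were called (2.32% higher, 3.06% lower), 1435987_x_at (limma adjusted p = 0.00299) was called higher and 1451938_a_at (limma adjusted p = 0.00164) lower. In that fit the 6 probe sets of Sntb1 differed from each other (limma diffSplice adjusted p = 8.3e-12, with 4.34% of 9010 genes called). The 3 tested ones alone were not called as different (limma diffSplice adjusted p = 0.943). However, the brightness limit had left out 1451938_a_at, the probe set that was lower, and the 3 passed it only because they were high in HSALR. The result for the 3 therefore cannot show whether the probe sets of Sntb1 moved together.

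HSALR replicate 3, highest in the 4 probe sets that were higher, was the lowest sample in 1451938_a_at, at 4.68. Across all 19 samples, however, deviations from the group means of 1451938_a_at had a Pearson r of -0.33 with those of 1435987_x_at, -0.27 with 1438288_x_at, -0.17 with 1436203_a_at and -0.01 with 1436204_at. Among those 4 probe sets r was 0.70 to 0.90. The sixth probe set, 1421455_at, lay at 4.19 to 4.48 in HSALR and 4.10 to 4.53 in wild type, close to no signal, where a change was not detectable. The probe sequences were not analysed here, so it is not known which Sntb1 transcripts each probe set reads.

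**Figure D2:**
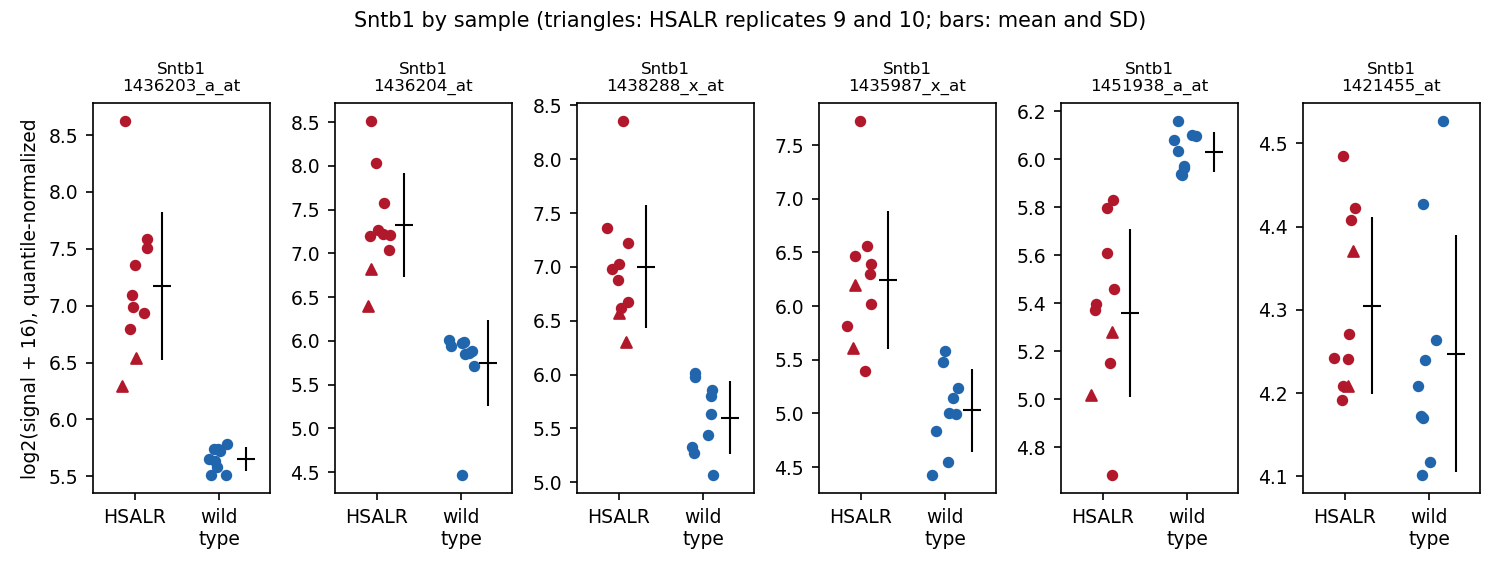
Log2(signal + 16) after quantile normalization of the 6 Sntb1 probe sets (panels, each with its own axis) in HSALR (red) and wild-type (blue) samples, with mean and SD as bars and HSALR replicates 9 and 10 as triangles. The groups are apart in the first 3 panels with HSALR above, and in the fifth with HSALR below.

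Sntb2 encodes beta-2 syntrophin, the close relative of Sntb1 that is enriched at the neuromuscular junction. All 4 of its probe sets lay below the brightness limit. Probe set 1420372_at gave 4.18, 4.82 and 5.60 in HSALR, against 4.18, 4.32 and 4.45 in wild type (log2 fold 0.50 ± 0.17), with 7 of 10 HSALR samples above all wild-type samples and replicates 9 and 10 the highest. Probe set 1449840_at gave 4.67, 5.54 and 6.27 in HSALR, against 5.53, 5.85 and 5.88 in wild type (log2 fold -0.22 ± 0.16), where the HSALR samples lay on both sides of the wild-type range. The remaining probe sets, 1436986_at and 1420371_at, had log2 folds of 0.081 ± 0.18 and -0.0082 ± 0.083. In the fit with no brightness limit none of the 4 was called (limma adjusted p = 0.0894 for 1420372_at, 0.507 for 1449840_at, 0.865 for 1436986_at and 0.973 for 1420371_at), and 1 of the 4, 1420372_at, had an unadjusted p under 0.05.

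Dystrophin itself was not called in any tested probe set. Its most intense probe set, 1448665_at, gave 10.78, 11.01 and 11.25 in HSALR, against 10.69, 10.97 and 11.24 in wild type, and the ranges all but coincide. The log2 fold was 0.055 ± 0.072 (limma adjusted p = 0.659). Probe set 1417307_at, from the same GenBank accession, had 0.017 ± 0.084 (limma adjusted p = 0.916) and 1443315_at 0.025 ± 0.11 (limma adjusted p = 0.907). In 1443315_at the HSALR samples spread over 7.77 to 8.71, on both sides of the wild-type range of 8.06 to 8.46, with replicates 9 and 10 at the low end. Leaving both out, the log2 folds of 1448665_at, 1417307_at and 1443315_at were 0.090, 0.075 and 0.15 (limma adjusted p = 0.485, 0.622 and 0.23). The dim 1430320_at, untested, had a log2 fold of 0.26 ± 0.15. The 3 tested probe sets were not called as different from each other (limma diffSplice adjusted p = 0.987, with 7.56% of 4778 genes called).

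Several starts are annotated for Dmd, a long one and internal ones that give shorter proteins, and probe sets toward the end of the gene can read more than 1 of them. To show how unlike such starts are, these are 2 windows that RefSeq (GRCm38.p6) gives for Dmd, each from 250 bases before to 50 after a start on the plus strand, at chrX:82948620-82948919 and chrX:85048045-85048344. Capitals mark GGGCGG, the core of the GC box, on either strand, which 35.7% of the 32851 promoter windows of this length hold.
Dmd, window 1: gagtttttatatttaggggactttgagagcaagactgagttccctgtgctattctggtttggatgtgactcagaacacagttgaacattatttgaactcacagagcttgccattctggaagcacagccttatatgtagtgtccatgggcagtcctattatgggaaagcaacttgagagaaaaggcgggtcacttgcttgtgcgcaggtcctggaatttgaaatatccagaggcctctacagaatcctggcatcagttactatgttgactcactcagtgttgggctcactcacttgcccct
Dmd, window 2: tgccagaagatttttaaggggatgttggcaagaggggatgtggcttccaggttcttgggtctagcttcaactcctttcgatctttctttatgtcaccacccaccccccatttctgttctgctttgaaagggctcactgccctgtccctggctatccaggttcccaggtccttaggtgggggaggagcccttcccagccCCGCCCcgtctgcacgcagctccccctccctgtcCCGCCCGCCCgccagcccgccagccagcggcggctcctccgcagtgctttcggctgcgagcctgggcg
The first window holds no GGGCGG and 45.7% G and C, and the second holds 3 matches, 2 of them overlapping, and 62.7%. The search also covered, on both strands, CAGCTG (an E-box of myogenic factors, in 16.3% of all windows), CATTCC (the core bound by TEAD factors, 14.7%), TATAAA (the TATA box, 13.6%), CCAAT (the CCAAT box, 37.4%) and CCGGAA (an ETS factor core, 14.9%). The first window held 1 TATAAA and the second none of them.

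Utrophin, which can take the place of dystrophin at the membrane when dystrophin is missing, had 1 tested probe set. Utrn 1452222_at gave 8.70, 9.15 and 9.40 in HSALR, against 8.86, 8.96 and 9.06 in wild type. Of the HSALR samples, 8 exceeded the wild-type maximum, while replicate 4 lay under the wild-type minimum. The log2 fold of 0.21 ± 0.08 was not called (limma adjusted p = 0.0721); it was called without HSALR replicate 4 (0.26, limma adjusted p = 0.00702). HSALR replicates 9 and 10, at 9.40 and 9.34, were among the 3 highest, and without both the log2 fold was 0.15 (limma adjusted p = 0.195). The dim probe sets 1427569_a_at and 1426892_at had log2 folds of -0.09 ± 0.13 and -0.29 ± 0.19, opposite in sign and untested.

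Dtna encodes alpha-dystrobrevin, which binds dystrophin and recruits syntrophins, and had 7 probe sets, 6 of them tested. Only 1456069_at was called, lower in HSALR: 6.48, 7.13 and 7.68 in HSALR, against 7.33, 7.65 and 7.84 in wild type, with 6 of 10 HSALR samples below every wild-type sample. Its log2 fold was -0.42 ± 0.13 (limma adjusted p = 0.0412). This call was lost with the scaling as deposited (limma adjusted p = 0.106) and without HSALR replicates 9 and 10 (log2 fold -0.28, limma adjusted p = 0.107), which were the 2 lowest samples. Among fits without 1 sample it held in 6 of 19, those without wild-type replicate 2 or 6 or HSALR replicate 3, 4, 6 or 7, and the adjusted p reached 0.075 in the rest.

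The most intense Dtna probe set, 1425292_at, gave 9.09, 9.48 and 9.77 in HSALR, against 9.28, 9.41 and 9.71 in wild type (log2 fold 0.017 ± 0.094, limma adjusted p = 0.923), with 4 HSALR samples below and 2 above the wild-type range. The log2 folds of 1419223_a_at, 1429768_at, 1426066_a_at and 1427588_a_at were -0.043 ± 0.12, -0.13 ± 0.095, -0.23 ± 0.12 and -0.28 ± 0.17, with limma adjusted p of 0.845, 0.378, 0.198 and 0.282. The last was called without wild-type replicate 9 alone (log2 fold -0.42, limma adjusted p = 0.0493), a sample at 6.06 that stood below the others. Untested 1453625_at had 0.11 ± 0.11. The tested probe sets were not called as different from each other (limma diffSplice adjusted p = 0.479).

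Dag1 encodes dystroglycan, the laminin receptor at the centre of the complex, whose precursor is cut into an outer and a membrane-spanning subunit. All 4 of its probe sets were tested and all had log2 folds below 0. The only one called, 1423872_a_at, gave 8.50, 8.80 and 8.99 in HSALR, against 8.80, 9.11 and 9.27 in wild type, with 5 HSALR samples below every wild-type sample (log2 fold -0.26 ± 0.08, limma adjusted p = 0.0344). It was not called with the scaling as deposited (log2 fold -0.20, limma adjusted p = 0.339), nor without HSALR replicates 9 and 10 (log2 fold -0.23, limma adjusted p = 0.0829). Without 1 sample it was lost in 9 of 19 fits, those without wild-type replicate 1, 4, 5, 7 or 8 or HSALR replicate 2, 5, 9 or 10, with adjusted p up to 0.0661. The most intense probe set, 1426778_at, gave 11.00, 11.16 and 11.46 in HSALR, against 11.00, 11.24 and 11.36 in wild type (log2 fold -0.029 ± 0.072, limma adjusted p = 0.826), and its sign turned with the scaling as deposited (0.037). The other Dag1 probe sets had -0.071 ± 0.077 and -0.10 ± 0.11.

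Of the sarcoglycans, Sgca encodes alpha-sarcoglycan, made in striated muscle. Its single probe set, 1422654_at, gave 10.50, 10.68 and 10.99 in HSALR, against 10.64, 10.87 and 11.02 in wild type, and 5 HSALR samples lay below the wild-type range. The log2 fold was -0.14 ± 0.08 (limma adjusted p = 0.222), and -0.098 with HSALR replicates 9 and 10 left out (limma adjusted p = 0.464).

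Sgcb encodes beta-sarcoglycan, which forms the core of the sarcoglycan group with delta-sarcoglycan. Its 3 probe sets gave 3 different pictures. Probe set 1419667_at was higher in HSALR, with 8.31, 8.66 and 8.87, against 8.00, 8.19 and 8.42 in wild type, and 7 of 10 HSALR samples exceeded the wild-type maximum. This was a 1.32-fold difference (log2 fold 0.40 ± 0.08, limma adjusted p = 0.00343) that was also called with the scaling as deposited (log2 fold 0.46, limma adjusted p = 0.0144) and without HSALR replicates 9 and 10 (log2 fold 0.45, limma adjusted p = 0.0021).

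By contrast, 1419668_at, from the same GenBank accession, gave 10.02, 10.33 and 10.50 in HSALR, against 10.09, 10.30 and 10.40 in wild type (log2 fold 0.027 ± 0.075, limma adjusted p = 0.847). HSALR replicates 9 and 10 were its 2 lowest samples. Probe set 1436678_at leaned the other way, with 9.40, 9.86 and 10.13 in HSALR, against 9.81, 10.08 and 10.38 in wild type, but was not called (log2 fold -0.25 ± 0.09, limma adjusted p = 0.0605). It was called without wild-type replicate 2 (log2 fold -0.29, adjusted p = 0.0389) or HSALR replicate 4 (-0.29, 0.0312), and had a log2 fold of -0.16 without HSALR replicates 9 and 10 (limma adjusted p = 0.162). The 3 probe sets differed from each other (limma diffSplice adjusted p = 0.000321). Which Sgcb transcripts they read is not known here. The start that RefSeq (GRCm38.p6) gives for Sgcb, at chr5:73647688-73647987 on the minus strand, is shown since the gene has 1 such window for all 3 probe sets, with GGGCGG of either strand in capitals.
Sgcb: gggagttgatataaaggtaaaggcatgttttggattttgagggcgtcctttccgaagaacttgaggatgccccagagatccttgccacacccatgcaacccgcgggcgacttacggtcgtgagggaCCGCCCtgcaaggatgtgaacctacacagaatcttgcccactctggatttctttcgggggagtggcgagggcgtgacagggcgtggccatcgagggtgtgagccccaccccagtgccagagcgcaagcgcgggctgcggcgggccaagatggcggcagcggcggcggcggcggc
It holds 1 GGGCGG and 1 TATAAA, and none of the other motifs searched. Windows of Dag1, Sgca and Utrn were also searched: those of Dag1, 2 in number, held GGGCGG 4 and 3 times and CCAAT 2 times and 1 time, and those of Sgca and Utrn held none of the 6 motifs.

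**Figure D3:**
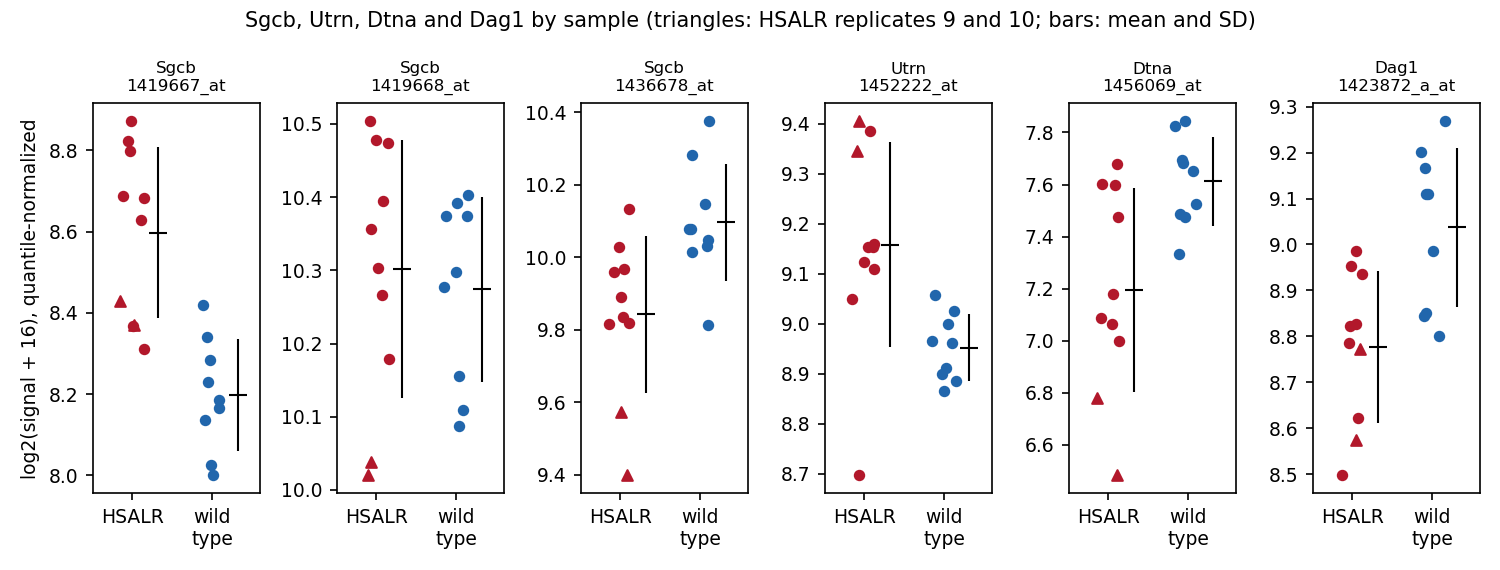
Log2(signal + 16) after quantile normalization of the 3 Sgcb probe sets and of 1 probe set each of Utrn, Dtna and Dag1 (panels, each with its own axis) in HSALR (red) and wild-type (blue) samples, with mean and SD as bars and HSALR replicates 9 and 10 as triangles. Sgcb 1419667_at lies higher in HSALR, 1419668_at overlaps, and in Dtna 1456069_at the 2 triangles are the lowest points, at 6.48 and 6.78.

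How the members varied among themselves was read from deviations from the group means, which leave out the difference between groups. The most intense tested probe set stood for each of 7 genes (Sntb2 had none), giving 21 pairs over 19 samples; for Sgcb this was 1419668_at, not the probe set that was called. Dmd (1448665_at) and Sgcb varied together: Pearson r was 0.68 (permutation within groups, 2-sided, p = 0.00122, adjusted p = 0.0256 over 21 pairs) and Spearman rho 0.70 (permutation p = 0.00194, adjusted p = 0.0407). The r was 0.67 without the 2 samples farthest in Dmd, 0.81 in HSALR alone and 0.55 in wild type alone. Without HSALR replicates 9 and 10 it was 0.64 and no longer passed (permutation p = 0.0076, adjusted p = 0.16).

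No other pair passed after adjustment. Dtna and Dag1 had r = 0.63 (rho = 0.66, permutation p = 0.0108 and 0.00641, adjusted p = 0.0916 and 0.0673), and r = 0.55 without the 2 farthest samples. Dmd and Sgca had r = 0.56 (rho = 0.54, permutation p = 0.0131 and 0.0213, adjusted p = 0.0916 and 0.149), and r = 0.45 without the 2 farthest samples. Sgca and Sgcb had r = 0.50 (rho = 0.49, permutation p = 0.0432 and 0.0455, adjusted p = 0.182 and 0.177), and r = 0.41 without the 2 farthest. Utrn had an r below 0 with each of the other 6, from -0.34 with Dmd to -0.53 with Sgcb (rho = -0.36, permutation p = 0.0368 and 0.158, adjusted p = 0.182 and 0.332; r = -0.35 without the 2 farthest samples). Sntb1 and Dmd had a pooled r of -0.06, with 0.43 in HSALR, -0.65 in wild type and 0.46 without the 2 farthest samples. With the scaling as deposited, where array brightness is shared by all probe sets, 5 pairs passed by Pearson r. The r of Utrn was then above 0 with 5 of the 6 genes. It was 0.41 with Dmd, 0.25 with Dtna, 0.39 with Dag1, 0.31 with Sgca, 0.32 with Sgcb and -0.15 with Sntb1. The sign of the Utrn correlations thus depended on the scaling.

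**Figure D4:**
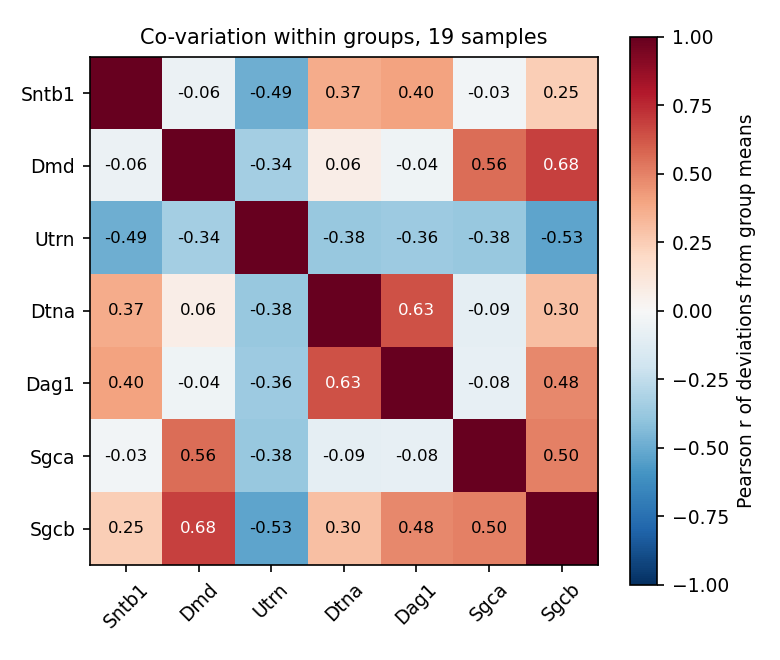
Pearson r of deviations from group means between the most intense tested probe sets of 7 member genes over 19 samples, blue below 0 and red above. Dmd and Sgcb, at 0.68, was the 1 pair of 21 that passed after adjustment, and the Utrn row is blue throughout, though with the scaling as deposited 5 of its 6 values were above 0.

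Among 11526 other genes, those whose deviations were most like a member's over the same 19 samples are given by r alone, as a description of values that share the same arrays. Closest to Sntb1 (1436204_at) were Ganc, Serpinb9b and Orai1 (r = 0.86, 0.82 and 0.82). In 1436204_at wild-type replicate 9, at 4.46, and HSALR replicate 3, at 8.51, lay farthest from their group means of 5.74 and 7.33. An r without these samples was not computed. Closest to Dmd were Qser1, Ptp4a2 and Kansl1l (0.90, 0.82 and 0.82). Utrn was most like Ebf1, Ptpra and Pdgfrb (0.89, 0.88 and 0.86), of which Pdgfrb is also in the list of smooth muscle and pericyte markers. Dtna was most like Vps26b, Fgfr1op2 and Cse1l (0.88, 0.88 and 0.83), Dag1 like Inpp5j, Nxph3 and Gapdhs (0.86, 0.84 and 0.83), and Sgca like Aktip, Rtn2 and 2510002D24Rik (0.85, 0.83 and 0.83). Sgcb was most like Asb8, Tmod1 and Orc4 (0.85, 0.84 and 0.83).

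The other genes of the pathway were read from lists, 1 most intense tested probe set per gene, beside 6.96% of 11533 genes called higher and 8.51% called lower (3.11% and 2.31% with the scaling as deposited). Of the other complex members 6 were tested, and limma called none (at an unadjusted p under 0.05, 2 higher and 0 lower). Sgce, epsilon-sarcoglycan of many tissues, differed by a log2 fold of 0.21 ± 0.09 (limma adjusted p = 0.111). Of the settings run, it was called only without HSALR replicate 4 (0.25, limma adjusted p = 0.0361). Cav3, the caveolin of muscle, stood at 0.18 ± 0.09 (limma adjusted p = 0.17), and was called without HSALR replicates 9 and 10 (0.26, limma adjusted p = 0.0393). Lama2, the laminin chain that dystroglycan binds in muscle, had 0.16 ± 0.07 (limma adjusted p = 0.164). Sspn, sarcospan of the membrane, had 0.055 ± 0.082. Nos1, the neuronal nitric oxide synthase, had -0.21 ± 0.11 (limma adjusted p = 0.209). Dtnb, beta-dystrobrevin, had 0.010 ± 0.10. Sgcd, Sntg1 and Sntg2 lay below the brightness limit, and Sgcz was not analysed here.

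Of 12 tested matrix ligands of dystroglycan, Agrn, the secreted organiser of the neuromuscular junction, rose, and none fell. It gave 6.16, 6.98 and 7.39 in HSALR, against 4.92, 5.50 and 6.59 in wild type, with 9 of 10 HSALR samples above the wild-type range (log2 fold 1.25 ± 0.21, limma adjusted p = 0.000493), and was called also with the scaling as deposited (1.30) and without HSALR replicates 9 and 10 (1.19). Like Sntb1 it reached the brightness limit only through HSALR. Of the 12 tested enzymes that build the sugar chain of dystroglycan, Dpm2, a subunit of the enzyme that makes dolichol-phosphate mannose, rose (log2 fold 0.40 ± 0.09, limma adjusted p = 0.00559). Pomk, a kinase that phosphorylates a mannose of that chain, fell (log2 fold -0.41 ± 0.13, limma adjusted p = 0.0419), a call lost with the scaling as deposited (limma adjusted p = 0.138) and in 11 of 19 fits without 1 sample.

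Of 22 tested costamere and cytoskeleton partners, 6 rose and 3 fell, with a median log2 fold of 0.09; with the scaling as deposited 4 rose and 0 fell. Flnc, the muscle filamin that binds sarcoglycans, gave 10.67, 11.14 and 11.78 in HSALR, against 9.99, 10.36 and 10.70 in wild type (log2 fold 0.78 ± 0.14, limma adjusted p = 0.000674). Ank3, an ankyrin that helps to place dystrophin at costameres, rose (log2 fold 0.56 ± 0.09, limma adjusted p = 0.000446). Anxa1, a membrane-repair annexin also made by leukocytes, rose too (log2 fold 0.83 ± 0.19, limma adjusted p = 0.00703). The log2 fold of Anxa1 was 0.59 when HSALR replicates 9 and 10 were left out. Actn3, the actinin of fast fibres, fell, with 9 of 10 HSALR samples below the wild-type range (log2 fold -0.23 ± 0.05, limma adjusted p = 0.0036), a call lost with the scaling as deposited (-0.18, limma adjusted p = 0.189). Of 14 tested signalling partners of syntrophin and dystrobrevin, Atp2b1, a calcium pump of the plasma membrane, rose (log2 fold 0.21 ± 0.07, limma adjusted p = 0.0443) and Mark2, a kinase, fell (-0.31 ± 0.10, limma adjusted p = 0.0412). Both calls were lost with the scaling as deposited (limma adjusted p = 0.208 and 0.273) and without HSALR replicates 9 and 10 (0.107 and 0.0516). They also missed the threshold in 13 and 12 of 19 fits without 1 sample.

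**Figure D5:**
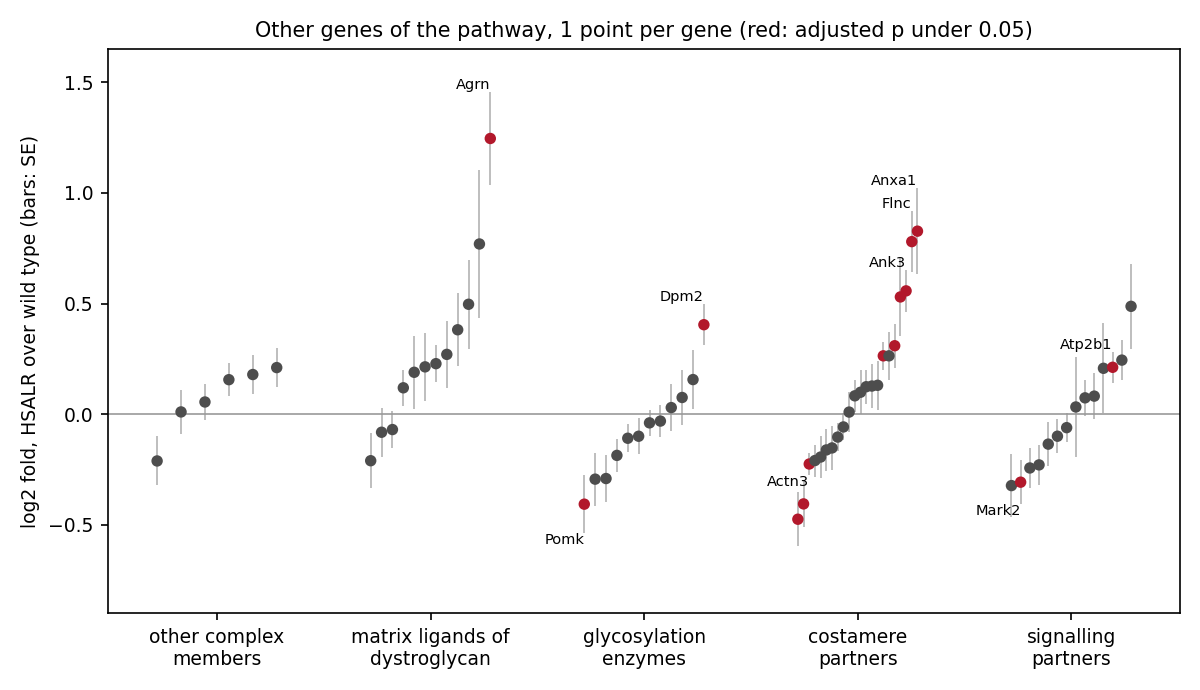
Log2 fold of HSALR over wild type for the tested genes of 5 lists around the complex (points, 1 per gene), with SE as bars; red points had a limma adjusted p below 0.05, and up to 4 per list with the smallest p are named. Agrn has the highest value, 1.25, and the 6 other complex members lie between -0.21 and 0.21.

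Markers of other cells in the muscle are given for comparison. Of tested markers, 2 of 9 of macrophages, 1 of 7 of fibroblasts, 3 of 6 of smooth muscle and pericytes, 2 of 6 of satellite and regenerating muscle cells and 2 of 3 of fat cells were called higher, and none of these lower. Of all 11533 genes 6.96% were called higher and 8.51% lower. With the scaling as deposited the smooth muscle and pericyte count was 1, and the other 4 counts stayed. Without HSALR replicates 9 and 10 it was 1 and the satellite count 1, with the rest as before. At an unadjusted limma p under 0.05, with all samples, 7 of the 9 macrophage and 2 of the 7 fibroblast markers were higher. For smooth muscle and pericytes, satellite cells and fat cells these counts were 3, 2 and 2, and none of these markers was lower. Of all 22519 tested probe sets 3018 were higher and 3631 lower at that p. Of 8 endothelial, 4 Schwann cell and 6 neuromuscular junction markers limma called none, and at an unadjusted p under 0.05 none of them was higher and 0, 1 and 2 were lower. The mean level of the neuromuscular junction markers was 7.65 to 8.16 in HSALR and 7.78 to 7.98 in wild type. The mean level of the 6 slow-fibre markers was 7.93 to 10.5 in HSALR samples and 8.03 to 11.8 in wild-type samples. All 6 had a log2 fold below 0 (median -0.72), and none was called (0 at an unadjusted p under 0.05). The part of these cells in the members' values was not tested.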

How the data were processed

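Biotin-labelled RNA of 10 HSALR and 9 wild-type EDL samples was put on 1 Affymetrix array each, per the labels' protocols. The authors deposited 1 linear intensity per probe set, for 45101 probe sets, made with GCOS 1.4 per the submitters' processing notes. Algorithm, scaling target and filters are not given in these sources. The trimmed mean of an array (2% removed at each end) ranged from 157 to 244, so arrays were quantile-normalized as log2(value + 16), without the 64 control probe sets, and the scaling as deposited was run beside it. Of the other probe sets 34945 have 1 gene symbol in the platform annotation, 932 several and 9160 are unnamed here; 34741 symbols were updated through Entrez identifiers. All 32 probe sets of members name 1 gene.

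Probe sets with a mean at or above the median of the means (6.09) were tested with limma 3.58.1 in R 4.3.3 (lmFit, eBayes, Benjamini-Hochberg, false discovery rate 0.05), and probe sets of 1 gene were compared with diffSplice. A gene in a list was read through its tested probe set with the highest mean. Deviations from group means were correlated with 100000 permutations within groups. In simulated data for HSALR against wild type over 22519 probe sets, limma found 40 of 50 probe sets set to change 1.5-fold. It found 49, 49 and 50 of 50 set to change 2-, 3- and 4-fold, and it called 12 unchanged ones. The simulated noise was normal, independent between samples and equally wide in both groups. The data had unequal spread in some probe sets and a closely similar pair of HSALR arrays, so these counts need not hold for them. The members, lists and tests were chosen with earlier results of these data known. Named are all member probe sets, all tested other complex members, up to 4 called genes of each further list with the smallest p, Acta1 and Dmpk as checks, and the 3 genes most like each member. Alternatives were other scalings, pseudocounts of 1 and 64, other filters, blocking on the replicate number, weighting arrays, the 3'/5' ratio of control probe sets as a covariate, and leaving out samples. Array data give no count of molecules, and the number of arrays limits the precision. Plots were made in Python 3.11.15 (matplotlib 3.10.9).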

Additional observations from a re-analysis of the deposited data

Results flagged for a closer look

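In 64 groups of member values (32 probe sets in HSALR and in wild type) 5 had a lowest or highest sample far from the rest, where chance gives about 1 in 20. In Sntb1, HSALR replicate 3 stood above the other HSALR samples in 1435987_x_at (7.72, next 6.56) and in 1438288_x_at (8.35, next 7.36). Wild-type replicate 9 stood below the other wild-type samples in Sntb1 1436204_at (4.46, next 5.71) and in Dtna 1427588_a_at (6.06, next 6.90). In Utrn 1452222_at HSALR replicate 4 stood below the other HSALR samples (8.70, next 9.05).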

How the results depend on the processing

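The 3 Sntb1 probe sets and Sgcb 1419667_at kept their direction and their call in every setting that tested them. The log2 folds were 0.99 to 1.86, 1.04 to 1.98, 0.88 to 1.77 (Sntb1 1436203_a_at, 1436204_at and 1438288_x_at, by pseudocount) and 0.35 to 0.46 (Sgcb). The 3 Sntb1 probe sets were not among the brightest 25% of probe sets, which left 2 member calls higher. With the main brightness limit they were tested only because they are high in HSALR. The same contrast chose the genes, so that these calls held is a description and no support. Of all probe sets, 645 were higher and 495 lower with the scaling as deposited, 427 and 402 when HSALR replicates 9 and 10 were also left out, and 1129 to 1724 and 1500 to 2103 without 1 sample. Same-numbered samples did not deviate together (r from -0.23 to 0.13, with 2 of 9 pairs over 0.1 and 1 of 9 HSALR samples closest to its own number); with the replicate block, which left out the unpaired HSALR replicate 10, 900 were higher and 1151 lower, and 0 member probe sets lower. Member probe sets called lower, 2 here, were 0 with the scaling as deposited, 0 without HSALR replicates 9 and 10 in either scaling, 1 with median centring (Dtna 1456069_at) or array weights (Dag1 1423872_a_at), 1 without a filter (Sntb1 1451938_a_at, with Dtna and Dag1 at adjusted p = 0.083 and 0.0762), and 0 to 3 without 1 sample; those called higher were 4 to 5.

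List counts were small and moved with the setting, as did the calls over all genes. In the main fit 803 of 11533 genes were called higher and 981 lower. Among the brightest 25% these were 740 and 964 of 6886, and with the 3'/5' covariate 1214 and 1292 of 11533. The list counts were as follows. Other complex members called were 1 without HSALR replicates 9 and 10 (0 to 1 without 1 sample). Laminin and other matrix genes were 2 with array weights and 5 with the 3'/5' covariate (1 to 3). Glycosylation enzymes were 1 with the scaling as deposited (also without replicates 9 and 10), median centring or no filter (1 to 3), and costamere partners 4 with the scaling as deposited, also without replicates 9 and 10 (7 to 11 without 1 sample). Signalling partners were 0 as deposited, with median centring, without a filter or with the covariate, 4 among the brightest 25% and 1 without replicates 9 and 10 in either scaling (0 to 3). By Pearson r, pairs of members that varied together numbered 5 as deposited, 2 with median centring and 0 without replicates 9 and 10. With median centring Dmd and Sgca had r = 0.72 (permutation adjusted p = 0.00756, and 0.00378 for rho). Dmd and Sgcb had r = 0.69 there (permutation adjusted p = 0.0135, but 0.065 for rho). Which pair was strongest thus depended on the scaling. Probe set differences in Sntb1 had an adjusted p of 8.3e-12 without a filter.

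Folds whose sign turned were near 0 and never called. Correlations turned more widely: the r of Utrn with Sgcb (0.32 as deposited), Dmd, Dtna, Dag1 and Sgca as deposited, and with Dmd (0.05) and Sgca (0.10) with median centring. With the 3'/5' covariate Dmd 1417307_at, Dmd 1443315_at, Dtna 1425292_at, Sgcb 1419668_at and Dtnb had log2 folds of -0.066, -0.068, -0.060, -0.022 and -0.039. That ratio was -0.17 to -0.03 in HSALR and -0.15 to 0.02 in wild type. Dtna 1419223_a_at had 0.024 as deposited, 0.00069 with the replicate block, 0.015 with array weights, and 0.072 and 0.081 without HSALR replicates 9 and 10 (quantile, as deposited). Dag1 1426778_at had 0.037, 0.017 and 0.037 as deposited and without these replicates (quantile, as deposited). Dtnb had -0.018 with array weights. Without 1 sample the ranges were -0.054 to 0.063 (Dtnb), -0.028 to 0.050 (Dmd 1417307_at), -0.022 to 0.083 (Dmd 1443315_at), -0.089 to 0.015 (Dtna 1419223_a_at) and -0.018 to 0.058 (Dtna 1425292_at). Utrn 1452222_at was called with the covariate (0.30, adjusted p = 0.0129) and among the brightest 25% (0.0419), as was Sgcb 1436678_at (-0.31, 0.0408, and 0.0367), and Sgca 1422654_at with the covariate (-0.23, 0.0479). Both settings called a larger share of all probe sets than the main fit, with its 1457 higher and 1884 lower of 22519. With the covariate 2084 were called higher and 2380 lower of 22519, and among the brightest 25% 1239 and 1645 of 11260. The cause of the changes in sign and in calls was not tested. No Sntb2 probe set was called without a filter, and signals near 4 limit what the dimmest could show.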
